A study of Rattus norvegicus with 145 samples.

Results

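The genes described here are transcripts of the rat forebrain that are scarce in the cerebellum. They were chosen by their mean levels in the wild-type (WT) libraries of 19 months. A member had at least 5 transcripts per 1000000 (TPM) in both striatum and cortex, was at least 8 times as high in each of these regions as in cerebellum, and had a striatum to cortex ratio between 0.5 and 2. Of the 32883 genes in the tables, 81 met these thresholds. The rule also named 6 identifiers to leave out, of which 0 met the thresholds. The WT libraries of 19 months therefore fix the regional pattern of the members at that age, and the levels given for those libraries are descriptions.

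The study compared Long Evans rats heterozygous for the Q130 knock-in allele (KI), a model of Huntington's disease, with WT rats by bulk RNA sequencing of dissected tissue. Cerebellum was sampled at 19 months (10 KI and 10 WT libraries) and at 24 months (7 KI and 4 WT). Cortex was sampled at 10 and 19 months with 10 libraries per genotype, and at 24 months with 7 KI and 4 WT. Striatum was sampled at 2 and 6 months with 3 males per genotype, at 10 and 19 months with 10 libraries per genotype, and at 24 months with 7 KI and 4 WT. The groups of 10 held 5 females and 5 males, the KI groups of 24 months 3 females and 4 males, and the WT groups of 24 months 2 of each sex. The striatal libraries of 2 and 6 months came from an earlier series and were added by the submitters as controls for the pipeline. All groups share the strain, each library comes from 1 animal, and animals of 10 to 24 months gave tissue from more than 1 region. A knock-in allele of this kind is carried by the whole animal and is not limited to a cell type. Libraries are named below by sex and number within a group, as in F5 for the fifth female. The same name in another region need not be the same animal.

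In Huntington's disease a CAG repeat of the huntingtin gene is expanded. The gene is expressed throughout the brain, and the loss of neurons is best known in striatum and cortex. Striatum and cortex are built from projection neurons and interneurons of the forebrain, whereas the cerebellum is made up largely of granule cells and Purkinje cells. A set of transcripts shared by striatum and cortex and low in cerebellum therefore tracks genes that adult cerebellar tissue uses little, and a gain of them in KI cerebellum is a question that the study's design allows to be asked. The tables carry identifiers only, with 0 of 32883 matched to a symbol, so the members cannot be assigned to pathways or cell types here, and the huntingtin gene could not be checked in the KI libraries. In bulk tissue, a change in the number of cells of a type and a change in RNA per cell cannot be told apart.

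The depth of the libraries (summed counts, divided by 1000000) was 25.6 to 34.4 in cerebellum, 28.9 to 47.3 in cortex and 26.7 to 34.5 in striatum. By their correlation with the other libraries of their region and age, KI and WT pooled, 12 of the 145 libraries stood apart, 6 KI and 6 WT. In cerebellum these were KI F5, KI M1 and WT M2 of 19 months, and none was of 24 months. In WT striatum of 10 months, M1 and M2 stood apart: the sum of 162 genes that the mirrored rule picks as high in cerebellum and low in forebrain was 14153 and 35515 TPM there, against a median of 637.0 TPM in their group, and 1 gene made up 92.6% and 95.5% of those sums.

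In the WT libraries of 19 months that chose them, the members ranged from 5.28 to 2079 TPM in cortex with a median of 33.1 TPM, and from 5.01 to 1494 TPM in striatum with a median of 32.7 TPM. In cerebellum they ranged from 0.017 to 35.9 TPM with a median of 1.11 TPM. The lower of the forebrain levels exceeded the cerebellar level by 8.10 to 451 times, with a median of 18.9. The genes were close to evenly split between the forebrain regions: 43 were higher in cortex and 38 in striatum. At the edges of the rule, the member with the lowest forebrain level had 5.01 TPM and the nearest gene outside it 4.98 TPM. The smallest fold over cerebellum inside was 8.10, and the nearest outside was 7.92. The striatum to cortex ratios nearest to the limits were 0.512 inside and 0.338 outside at the lower limit, and 1.85 inside and 2.08 outside at the upper limit.

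The summed level rested on a few abundant genes, more so in cortex than in cerebellum. The 5 highest members of each region made up 52.6% of the sum in WT cortex of 19 months, 45.4% in WT striatum and 40.5% in WT cerebellum. The member highest in cortex accounted for 22.9% of the cortical sum. In cerebellum many members were near the limit of detection: 38 were under 1 TPM in WT of 19 months, 9 reached 10 TPM or more, and 17 had a median of fewer than 10 counts per library. The median member had 46 counts per WT cerebellar library, so that for the lowest members a change of a few reads is a large fold.

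**Figure D1:**
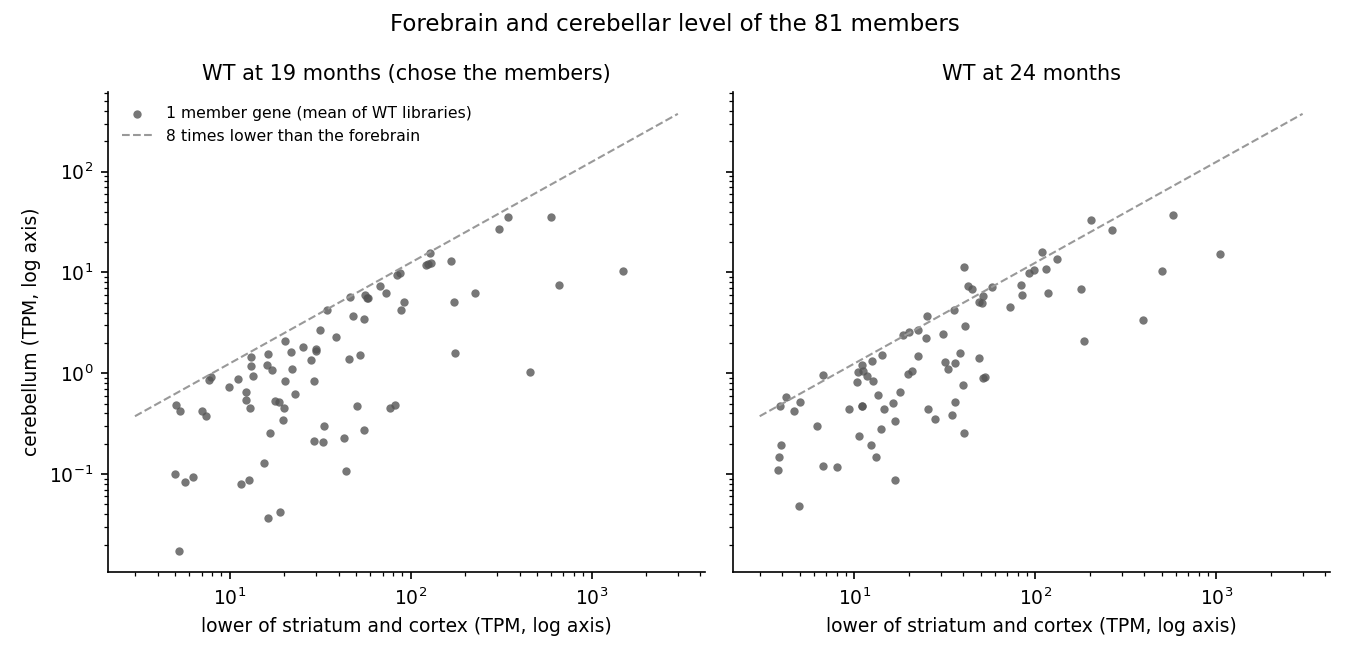
Mean level of each of the 81 members in WT rats, with the lower of striatum and cortex on the horizontal axis and cerebellum on the vertical axis, both in TPM on log axes, at 19 months (left, the libraries that chose the members) and at 24 months (right). The dashed line marks a cerebellar level 8 times lower than the forebrain level; at 24 months 71 of the 81 members were still at least 8 times lower.

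The regional pattern was tested in the WT animals of 24 months, which the rule did not use. All 81 members were lower in cerebellum than in cortex by edgeR's quasi-likelihood test with animal as a block, with a median difference of -4.87 on the log2 scale, where 36.2% of all genes tested were lower in cerebellum. Likewise 81 were lower in cerebellum than in striatum, with a median of -4.64, against 32% of all genes. The threshold of 8 times was still met by 71 members in WT of 24 months and by 59 in KI. That fold joins the levels of forebrain and cerebellum. The member sums of 24 months were themselves lower in KI forebrain, at ratios to WT of 0.875 in striatum and 0.919 in cortex. The median striatum to cortex ratio was 0.715 in WT of 24 months and 0.706 in KI of 24 months. In WT of 19 months, where the rule held every ratio between 0.5 and 2, it was 0.978, and in KI of 19 months it was 0.936. The WT ratio of 24 months rests on 4 striatal libraries, of which F2 was the lowest for 72 of the 81 members.

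The question of a gain of forebrain transcripts in cerebellum was first asked of the summed level per library. At 24 months the 81 members together made up 307, 318, 333 and 338 TPM in the WT libraries. The KI libraries held 360, 361, 364, 369, 377, 397 and 410 TPM, so that every KI library lay above every WT library. The means were 377 ± 19.3 TPM (SD, n = 7) in KI and 324 ± 14.03 TPM (SD, n = 4) in WT, a ratio of 1.16. No p-value is given for the sum, since the members were chosen with results of these data known. Set against the forebrain, the sum in cerebellum came to 4.36% of that in cortex in KI and 3.45% in WT. Each percentage uses the cortex of its own genotype, and the cortical sum was itself lower in KI, at a ratio of 0.919 to WT.

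At 19 months the groups overlapped. The WT sums ran from 260 to 400 TPM with a median of 310.4 TPM, and the KI sums from 298 to 452 TPM with a median of 320.4 TPM. The means were 313 ± 39.0 TPM in WT and 334 ± 44.1 TPM in KI (SD, n = 10 each), a ratio of 1.07. A single library stood at the top of each group, KI F5 at 452 TPM and WT M1 at 400 TPM. KI F5 was the highest KI library for 40 of the 81 members, and WT M1 the highest WT library for 30. Without them, the sums lay between 298 and 347 TPM in KI and between 260 and 342 TPM in WT. For the member highest in cortex, at 2079 TPM there in WT of 19 months, KI F5 had 59.8 TPM in cerebellum and WT M1 had 41.7 TPM. The other libraries of 19 months had 3.23 to 18.4 TPM of that transcript in KI and 4.89 to 8.63 TPM in WT. The 8 genes that met the level and fold thresholds with a striatum to cortex ratio under 0.5, here called cortex-leaning, were also highest in these libraries, at 23.3 TPM in KI F5 and 14.2 TPM in WT M1, against group medians of 6.85 and 6.25 TPM.

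**Figure D2:**
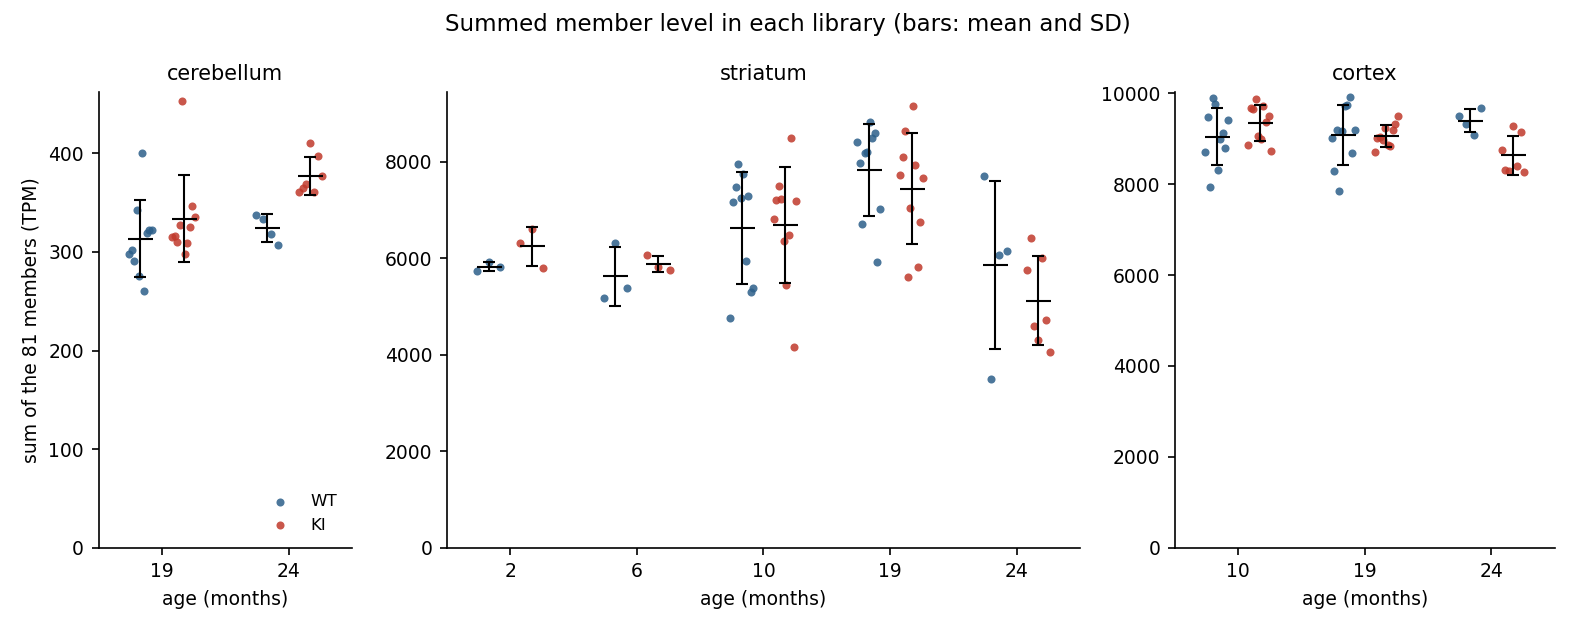
Sum of the 81 members in every library, in TPM, by region and age; blue points are WT, red points KI, and black bars the mean with SD, and each panel has its own vertical axis from 0. In cerebellum of 24 months the KI libraries (360 to 410 TPM) sit above the WT libraries (307 to 338 TPM), while the groups overlap in every other panel and age.

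Gene by gene at 24 months, 73 of the 81 members passed the filter on low counts in cerebellum. That filter keeps a gene that passes through the libraries of either genotype alone. A member too scarce in WT could thus enter only as higher in KI, and one too scarce in KI only as lower. The counts of higher and lower members may therefore be partly set by the filter. By edgeR's quasi-likelihood test with sex as a covariate, 5 rose in KI and 0 fell at an adjusted p under 0.05. That is 6.85% of the members tested and 6.17% of all members, where 1.2% of the 15381 genes tested rose and 0.969% fell. The median difference of the members was 0.15 on the log2 scale, with 53 of 73 above 0, and the median of all genes tested was -0.00099. At an unadjusted p under 0.05, 12 members were higher and 0 were lower, where 7.35% of all genes were higher and 6.13% lower. DESeq2 called 7 members and limma on the TPM values called 3, and by these tools too 0 were lower. The count was 2 without WT library M2, and 3 without WT library F1 or WT library M1.

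A simple view of the same libraries asks for how many members every KI library lay above every WT library. At 24 months this held for 8 of the 73 members tested, or 10.96%, against 3.02% of all genes tested. The opposite order, every KI library below every WT library, held for 0 members and for 1.12% of all genes. Both counts are of tested members, so the limit set by the count filter applies here too. These 8 included the 5 that passed the test. The other three, at 177, 82.9 and 74.8 TPM in WT cortex, differed in cerebellum by 0.37, 0.17 and 0.27 on the log2 scale, with edgeR adjusted p of 0.0768, 0.44 and 0.292.

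The lead member by p was ENSRNOG00000020875, whose level in WT cortex of 24 months was 57.9 TPM. In WT cerebellum of 24 months the 4 libraries had 6.01, 7.03, 7.57 and 8.14 TPM. The KI libraries had 10.7, 11.2, 11.5, 12.1, 12.2, 12.6 and 12.7 TPM, all above the WT range. The KI minus WT difference was 0.69 ± 0.10 (log2, SE), a fold of 1.62, with an edgeR adjusted p of 0.00253. At 19 months, where the WT libraries are those that chose the members, the WT libraries had 4.66 to 7.74 TPM with a median of 5.88 TPM and the KI libraries 7.52 to 11.3 TPM with a median of 9.39 TPM. At that age the lowest KI library lay just under the highest WT library, and the difference was 0.67 ± 0.10 (log2, SE). In the forebrain the ranges of KI and WT overlapped: cortex of 24 months had 46.2 to 59.4 TPM in KI and 52.3 to 62.9 TPM in WT, and striatum 44.5 to 63.9 TPM in KI and 34.0 to 82.4 TPM in WT.

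ENSRNOG00000007925 was scarcer in cerebellum and close to it in cortex, at 52.4 TPM in WT of 24 months. Its WT cerebellar libraries of 24 months had 1.20, 1.33, 1.47 and 1.68 TPM. The KI libraries had 2.08, 2.28, 2.34, 2.36, 2.45, 2.76 and 2.98 TPM, again all above the WT range. The difference was 0.75 ± 0.14 (log2, SE), a fold of 1.68, with an edgeR adjusted p of 0.0160. Without WT library M2 the difference was 0.66 and the edgeR adjusted p 0.0864. At 19 months the ranges overlapped, 0.974 to 2.77 TPM in WT and 1.21 to 3.405 TPM in KI, with a difference of 0.50 ± 0.20 (log2, SE). The highest libraries of each genotype at that age were again WT M1 and KI F5.

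The other members that rose at 24 months had 8.35, 102 and 334 TPM in WT cortex. The scarcest of them had 0.017, 0.118, 0.148 and 0.160 TPM in the WT cerebellar libraries and 0.292 to 0.514 TPM in KI. Its difference of 1.89 ± 0.37 (log2, SE; edgeR adjusted p 0.0170) was the steepest among the members tested, and it was not repeated at 19 months, where WT had 0.094 to 0.866 TPM and KI 0.293 to 0.770 TPM. The WT level differed between the ages more than the KI level did: the medians were 0.457 TPM in WT and 0.487 TPM in KI at 19 months, and 0.133 and 0.418 TPM at 24 months.

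The member at 102 TPM in WT cortex had 4.05, 4.19, 4.53 and 5.23 TPM in WT cerebellum and 5.42 to 6.92 TPM in KI, a difference of 0.41 ± 0.08 (log2, SE; edgeR adjusted p 0.0218). The most abundant of the 5, at 334 TPM in WT cortex, had 29.4, 29.5, 36.4 and 37.1 TPM in WT cerebellum. In KI it had 37.4 to 42.9 TPM, a difference of 0.25 ± 0.06 (log2, SE; edgeR adjusted p 0.0409), so the nearest libraries of the 2 genotypes were almost level. The WT females were close to the KI range for this gene and the WT males were well below it.

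At 19 months, 66 members passed the count filter, and 2 rose and 0 fell by the edgeR test. That is 3.03% of the members tested, where 1.05% of all genes rose and 1.28% fell. These comparisons use the WT libraries that chose the members, so they are descriptions. The second gene that rose at that age, at 115 TPM in WT cortex of 24 months, had 10.6 to 14.4 TPM in WT cerebellum and 12.9 to 18.5 TPM in KI, a difference of 0.34 ± 0.08 (log2, SE). At 24 months it had 9.28 to 12.9 TPM in WT and 12.5 to 21.7 TPM in KI, with a larger difference of 0.61 ± 0.15 that did not pass (edgeR adjusted p 0.0601). All 5 genes called at 24 months had a positive difference at 19 months, and 1 was called at both ages.

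**Figure D3:**
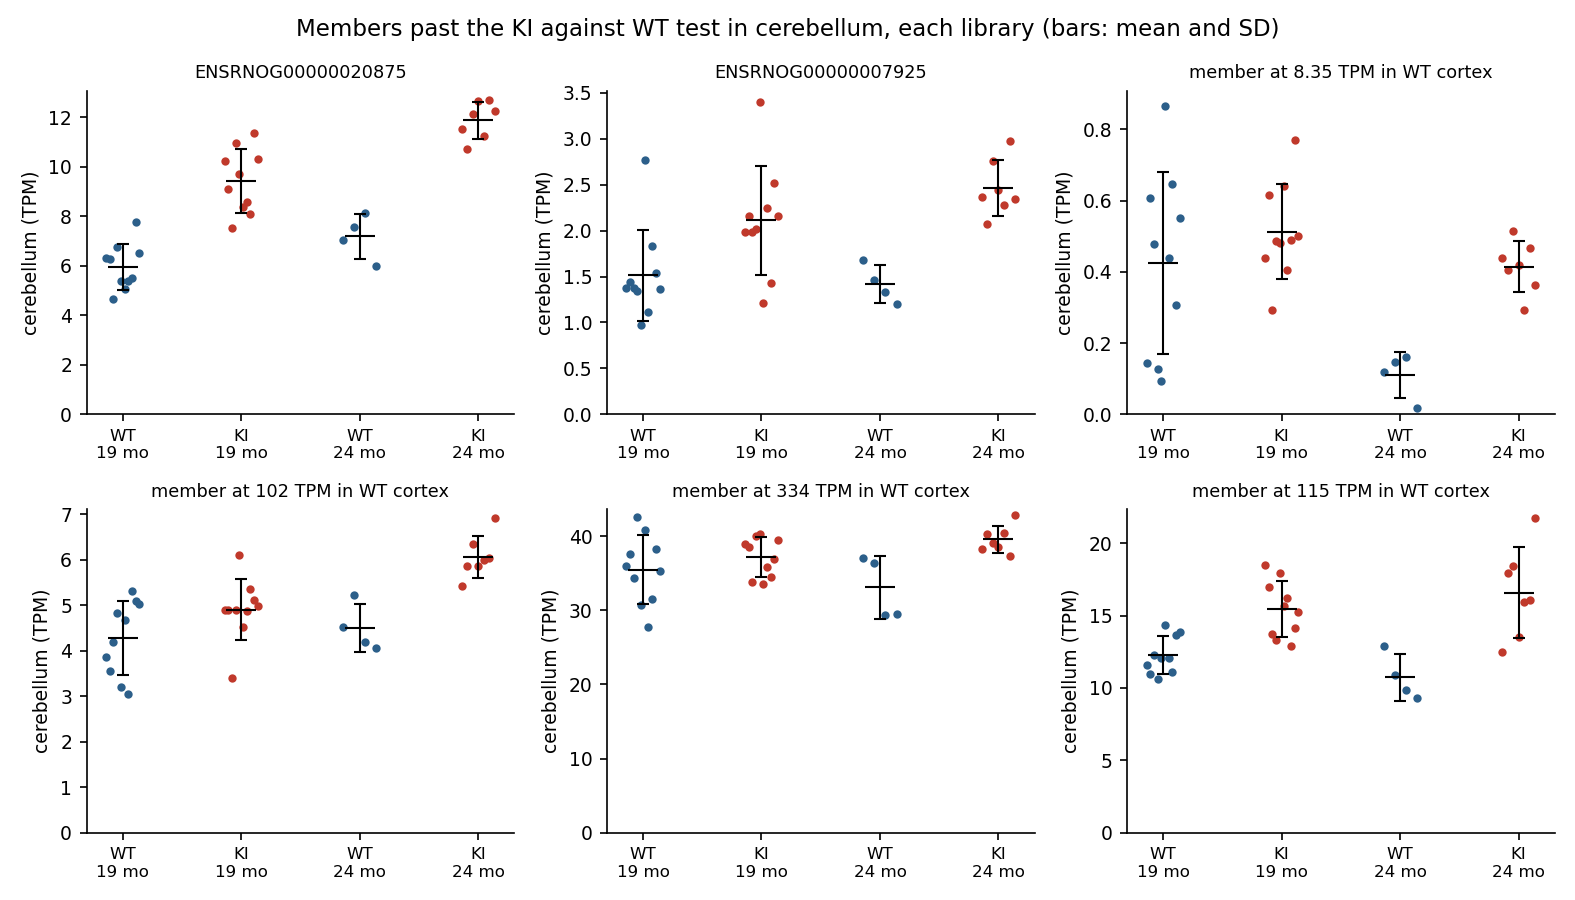
Level in each cerebellar library, in TPM, of the 6 members that passed the KI against WT test at 24 months (first 5 panels) or at 19 months only (last panel), with WT in blue, KI in red and bars for the mean and SD; members without a printed identifier are named by their mean in WT cortex of 24 months. In the first 5 panels the KI libraries of 24 months all sit above the WT libraries of that age, and in the first panel the 19-month groups are also nearly apart.

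Over all tested members at 19 months, the median difference was 0.08 on the log2 scale, with 41 of 66 members above 0. It was -0.02, with 29 of 66 above 0, without the 3 libraries that stood apart, while 2 members were still called. Among females alone the median was 0.26 and among males alone -0.04, a contrast in which KI F5 is female and WT M1 is male. No member had every KI library above every WT library at 19 months, where 0.113% of all genes did, and 0 had every KI library below, where 0.185% did. Of the 66 members tested at both ages, 30 had a positive difference at both, 7 a negative difference at both, 11 were positive at 19 months only and 18 at 24 months only.

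Abundant members were the most uniform at 24 months. All 17 members at 100 TPM or more in WT cortex were above 0 in cerebellum of 24 months, with differences from 0.04 to 0.61 and a median of 0.18 (log2), and 2 of them were called. Of the 42 tested members between 20 and 100 TPM, 27 were above 0, with a median of 0.13. Of the 14 tested members under 20 TPM, 9 were above 0, with a median of 0.11 and a range from -0.49 to 1.89. The member furthest below 0, at 12.3 TPM in WT cortex, had 0.228 to 1.003 TPM in WT cerebellum and 0.018 to 0.839 TPM in KI, with an edgeR adjusted p of 0.800. In cerebellum of 19 months the 17 abundant members were not uniform, with 11 above 0 and a median of 0.04. In striatum of 24 months 0 of these 17 were above 0, with a median of -0.33, and in cortex 5 were, with a median of -0.03. Members measured in the same libraries are not independent, so a shared sign is a description.

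The 5 members highest in cortex show how small the cerebellar differences were beside the forebrain levels. The highest, at 2129 TPM in WT cortex of 24 months, had 14.5, 14.9, 15.1 and 17.01 TPM in WT cerebellum and 15.4 to 27.7 TPM in KI, with KI M1 and KI M3 at the top. Its difference was 0.31 ± 0.17 (log2, SE; edgeR adjusted p 0.497), and the ranges overlapped. The next, at 1266 TPM in cortex, had 34.2 to 40.4 TPM in WT cerebellum and 35.5 to 45.5 TPM in KI. Over all 81 members, the KI minus WT gain in cerebellum ran from -1.93% to 8.10% of the WT cortical level, with a median of 0.31%. The gain in TPM was larger for members with a higher cortical level (Spearman's rho = 0.64 across 81 genes of the same libraries, which are not independent). At an equal fold a gain in TPM is larger for a gene more abundant in cerebellum, so this rho is no measure of fold. On the log2 scale the medians were 0.11 under 20 TPM in cortex, 0.13 between 20 and 100 TPM and 0.18 at 100 TPM or more. The log2 difference was unrelated to how far a gene was below its forebrain level (rho = -0.04 across 73 genes).

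The genes with the mirrored pattern were more often lower than higher in the same KI libraries. The 162 genes high in cerebellum and low in forebrain had a median difference of -0.13 at 24 months, with 30 lower and 3 higher in KI by the edgeR test, where 0.969% of all genes were lower and 1.2% higher. At 19 months, where the WT libraries chose these genes as high, the median was -0.11, with 28 lower and 3 higher, against 1.28% and 1.05% of all genes. Their sum at 24 months was 12336 to 17900 TPM in KI and 16966 to 18937 TPM in WT, with 5 of 7 KI libraries below the WT range. The most abundant gene of the set in cerebellum, singled out after its values were seen, varied from 9.71 to 5092 TPM over these KI libraries and from 2490 to 5000 TPM over the WT libraries. Without it the sums were 12021 to 13145 TPM in KI and 13936 to 15014 TPM in WT. Of the 27 striatum-leaning genes, 1 was higher and 0 were lower at 24 months (1.2% and 0.969% of all genes). Their sums overlapped (60.1 to 72.1 TPM in KI, 57.0 to 67.0 TPM in WT). Of the 8 cortex-leaning genes 0 were called, and the sums were 8.58 to 10.8 TPM in KI and 6.83 to 7.89 TPM in WT. For this set too, as for the members, every KI library lay above every WT library. The part of the lower cerebellar transcripts in the members' difference was not tested.

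In the forebrain itself, where the members are abundant, 0 of the 81 passed the KI against WT test in any of the 8 comparisons by edgeR. In cortex the medians of the members were 0.01 at 10 months, -0.03 at 19 months and -0.04 at 24 months on the log2 scale. At an unadjusted p under 0.05 there were 7, 11 and 7 members, of which 5, 8 and 7 were lower in KI. Of all genes, 6.66%, 5.32% and 5.00% were past that threshold, with 4.37%, 2.87% and 2.13% as lower. All genes gave 0% called at 10, at 19 and at 24 months in cortex, and DESeq2 and limma likewise called 0 members. The summed level in cortex of 24 months was 9087, 9322, 9493 and 9672 TPM in WT and 8277 to 9284 TPM in KI, with 5 of the 7 KI libraries below the lowest WT library. The lowest of these KI libraries, M4, was among those that stood apart by their correlation. Its animal is that of KI M1 in cerebellum of 24 months, which had the highest member sum there, 410 TPM. The ratio of the means was 0.919 in cortex, against 1.16 in cerebellum of that age.

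In striatum the medians were 0.12 at 2 months, 0.06 at 6 months, 0.01 at 10 months, -0.04 at 19 months and -0.25 at 24 months. The share of all genes called in these comparisons was 0% at 2 months, 0.013% at 6 months, 0.00654% at 10 months, 0.0196% at 19 months and 0% at 24 months. At an unadjusted p under 0.05, 17 members were found at 2 months (14 higher in KI), 12 at 6 months (10 higher), 0 at 10 months, 1 at 19 months (lower) and 7 at 24 months (6 lower). The shares of all genes at that threshold were 6.22%, 8.22%, 5.78%, 1.70% and 2.99% in the same order. By direction, 2.93% of all genes were higher in KI and 3.29% lower at 2 months, and 5.67% and 2.55% at 6 months. At 19 months 1.22% were higher and 0.485% lower, and at 24 months 0.978% and 2.01%. DESeq2 called 3 members at 6 months, all higher in KI, and 0 at the other ages, and limma called 0 throughout. Without WT library M1 of 6 months edgeR also called 3, and without KI library M3 of 2 months it called 1. The result at 10 months was 0 called with or without the WT libraries that stood apart.

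The striatum of 24 months had the widest spread. The member sum was 3496, 6072, 6154 and 7710 TPM in WT and 4065 to 6417 TPM in KI, so that the KI range lay inside the WT range. The KI library with the lowest sum, M4, was among those that stood apart by their correlation. The members moved together from library to library: WT F1 was the highest WT library for 69 of 81 members and WT F2 the lowest for 72. The sum of the 27 striatum-leaning genes was 4067 TPM in WT F1 and 1811 TPM in WT F2, and that of the 8 cortex-leaning genes was 113 and 55.3 TPM. All 3 sums were thus lower in WT F2 together. Leaving out 1 library at a time moved the median difference at 24 months between -0.46 and -0.10. Between libraries, the coefficient of variation of the members had a median of 36.5% in WT striatum of 24 months, against 7.62% in WT cortex, and 76 of the 81 were more variable in striatum.

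**Figure D4:**
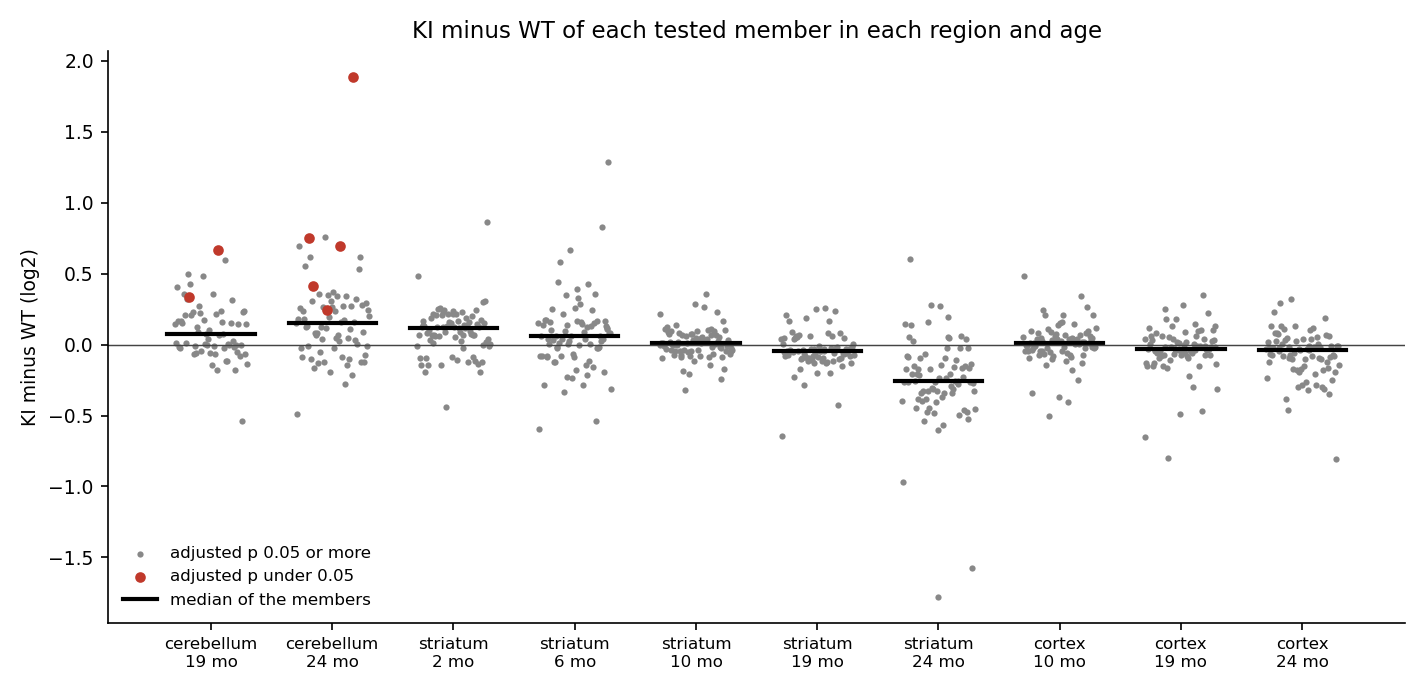
KI minus WT difference of each tested member on the log2 scale, for the 10 combinations of region and age; grey points did not pass the test, red points passed at an edgeR adjusted p under 0.05, and black lines are the medians of the members. Red points appear in cerebellum only, 2 at 19 months and 5 at 24 months, and the medians run from -0.25 in striatum of 24 months to 0.15 in cerebellum of 24 months.

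Whether the genotype difference itself differed between regions was tested with a region by genotype term, with animal as a block. Against cortex at 24 months, 5 members had a larger KI minus WT difference in cerebellum, where 0.224% of all genes were called. They were the 5 called in cerebellum alone, with cerebellum minus cortex differences of 0.77 for ENSRNOG00000020875, 0.79 for ENSRNOG00000007925, and 1.98, 0.50 and 0.44 for the members at 8.35, 102 and 334 TPM in cortex. The edgeR adjusted p ranged from 0.00585 to 0.0328. The median of the 81 members was 0.21, with 64 above 0, and that of all genes was 0.01. For the member at 334 TPM, the difference in cerebellum alone was 0.25. Its levels in cortex of 24 months were lower in KI, at 266 to 309 TPM against 308 to 366 TPM in WT. The value of 0.44 for that member thus joins a higher KI level in cerebellum and a lower one in cortex.

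At 19 months the same term uses the WT libraries that chose the members, so its values are descriptions. Against cortex 1 member was past the threshold, where 0.322% of all genes were: ENSRNOG00000020875, with a difference of 0.76 ± 0.10 (log2, SE). Against striatum at that age it was again the 1 member past the threshold, with 0.72 ± 0.13 (log2, SE), where 0.126% of all genes were. At 24 months against striatum 0 members were called by edgeR and 12 had an unadjusted p under 0.05, 11 of them with the larger difference in cerebellum. Of all genes, 0.00619% were called there and 4.71% had an unadjusted p under 0.05, 2.83% with the larger difference in cerebellum. The value for ENSRNOG00000020875 there was 0.91 ± 0.20 (log2, SE; edgeR adjusted p 0.533), against the wider spread of the striatal libraries.

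Age was compared in the forebrain of WT rats between 10 and 24 months by edgeR. Of the 81 members, 0 were called in WT striatum, where 0.0255% of all genes were, with 7 at an unadjusted p under 0.05, against 5.89% of all genes. In WT cortex 0 were called, where 0.683% of all genes were, with 15 at an unadjusted p under 0.05, of which 14 were lower at 24 months. Of all genes 17.2% were past that unadjusted threshold, 9.63% as lower.

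In KI cerebellum, 71 members were tested between 19 and 24 months, and 5 were higher and 0 lower at 24 months by edgeR, where 0.975% of all genes were called in either direction. At an unadjusted p under 0.05, 21 were higher and 0 lower, where 8.25% of all genes were higher and 7.16% lower. The count filter keeps a gene that passes through the libraries of either age alone. A member too scarce at 19 months could thus enter only as higher at 24 months. The counts of higher and lower members are therefore partly set by the filter. All 5 called members were among the 22 members more than 64 times lower in cerebellum than in forebrain, of which 15 were tested. That fold is taken from the WT libraries of 19 months, which chose the members as low, so this placing is a description. The most abundant of the 5 in cortex was at 526 TPM in WT of 24 months. It had 0.172 to 2.24 TPM in KI cerebellum of 19 months and 2.93 to 6.36 TPM at 24 months, with no overlap. Its difference was 2.16 ± 0.39 (log2, SE; edgeR adjusted p 0.0190). The WT libraries had 0.364 to 2.19 TPM at 19 months and 2.84 to 4.05 TPM at 24 months. The WT values of 19 months chose the members as low, so they are given as a description and no age test was made in WT cerebellum.

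The other four were lower in cerebellum. The member at 40.2 TPM in WT cortex was listed at 0 to 0.159 TPM in KI cerebellum of 19 months and 0.282 to 0.629 TPM at 24 months, and had 0.023 to 0.146 TPM in WT of 19 months and 0.186 to 0.311 TPM in WT of 24 months. The remaining members were at 48.0, 73.8 and 79.0 TPM in cortex, and their KI differences between the ages were 1.65, 1.33 and 1.34 on the log2 scale. Their WT means were also higher at 24 months, at 0.339, 0.926 and 0.904 TPM, where KI had 0.449, 0.979 and 1.15 TPM. In the WT libraries of 19 months, which chose the members, the means were 0.212, 0.448 and 0.490 TPM. For the member at 79.0 TPM the KI ranges of the ages overlapped, at 0.246 to 0.961 TPM and 0.666 to 1.93 TPM. None of the 5 was called between KI and WT at 24 months, nor were the 3 of them that were tested at 19 months. The 19-month animals carry another series of identifiers than the 24-month animals, so age and the series of animals cannot be told apart.

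**Figure D5:**
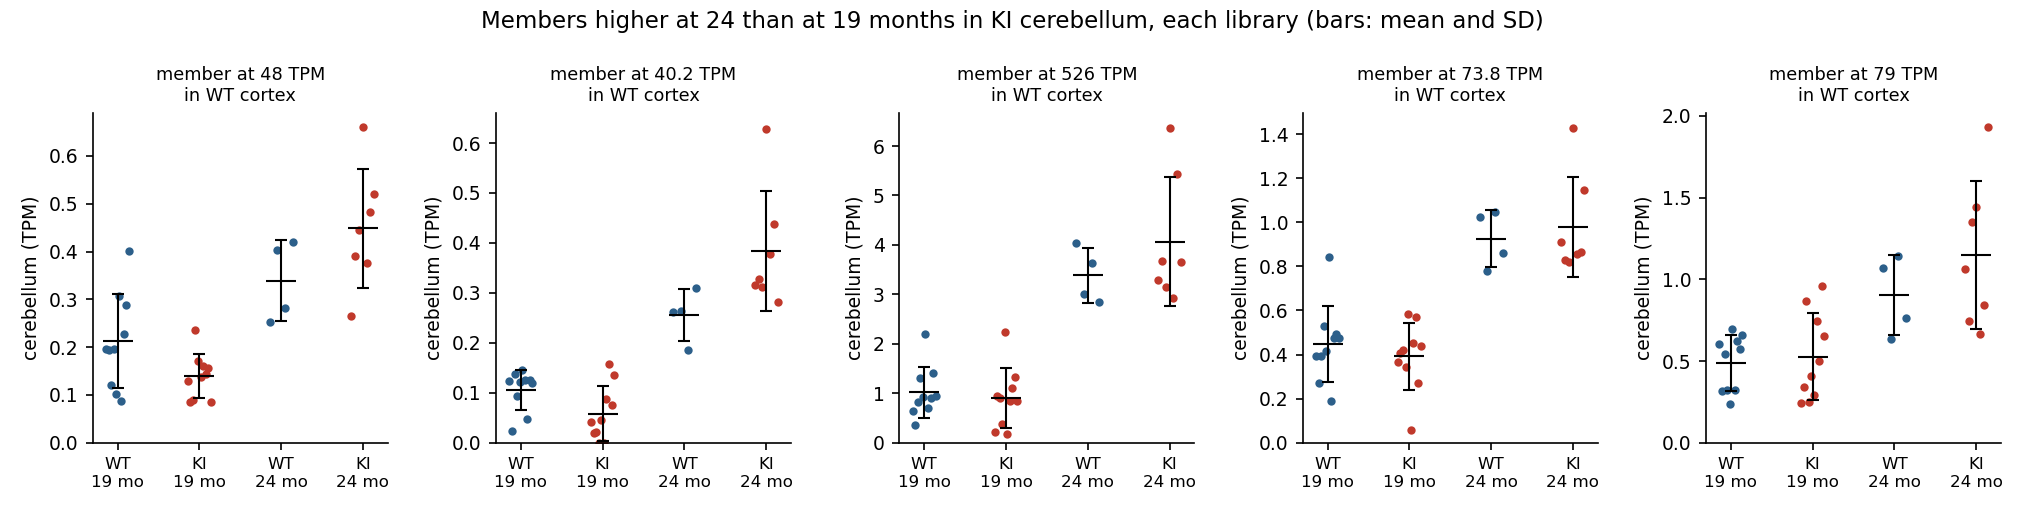
Level in each cerebellar library, in TPM, of the 5 members that were higher at 24 than at 19 months in KI cerebellum, with WT in blue, KI in red and bars for the mean and SD; panels are named by the mean in WT cortex of 24 months. For the member at 526 TPM the KI libraries run from 0.172 to 2.24 TPM at 19 months and from 2.93 to 6.36 TPM at 24 months; the WT libraries of 19 months are among the values that chose the members.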

How the data were processed

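RNA was measured in 145 libraries from 63 rats. The authors deposited estimated counts per gene, of which 8.12% were not whole and which were rounded here, and a second table of values that the authors named FPKM. Each library of that deposited table sums to 1000000, which is the property of TPM, and the values are called TPM here. Per the file headers the reference is Rat.B6.0. Aligner, counter and annotation: not given in the sources used here. Tissue was frozen and RNA extracted with a Qiagen kit, per the labels' protocols. Samples were grouped by genotype, region, age and sex from the labels.

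Each comparison was fitted on all genes with edgeR 4.0.16 in R 4.3.3 (TMM, filterByExpr, robust quasi-likelihood F test, sex or animal as covariate), with Benjamini-Hochberg adjustment over all genes tested and a threshold of 0.05. The scripts were tested on simulated data. Alternatives were DESeq2 1.42.0, limma 3.58.1 on log2(TPM + 0.1) and log2(TPM + 1), other size factors and filters, a replicate block, single sexes, left-out libraries and other membership thresholds. A library stood apart when its mean correlation with the other libraries of its region and age was more than 5 median absolute deviations below their median. KI and WT libraries were pooled for this. The members and lists were chosen with earlier results of these data known. Identifiers printed are the 2 members that rose with the smallest 24-month p in cerebellum among those whose mean log2 CPM was 0 or more, and none fell; other members are given by value. The design assumed symbols for 18 gene lists, which could not be matched and were not tested. Replicates are separate animals, per the labels, and 0 pairs of libraries were identical.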

Additional observations from a re-analysis of the deposited data

Results flagged for a closer look

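A library far from the others of its group was found in 4 of the 40 sets of values examined (member sums and the printed genes, by group); chance flags about 1 in 20. The member sum of KI cerebellum of 19 months was 452 TPM in F5, apart from the other 9 libraries. ENSRNOG00000007925 was 2.77 TPM in WT cerebellum of 19 months in M1, high in its group. The same gene was 33.6 TPM in KI striatum of 19 months in M3 and 38.5 TPM in WT striatum of 19 months in M4, each low in its group; both libraries also stood apart by their correlation.

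At 24 months the KI minus WT difference differed between cerebellum and cortex by the region by genotype test for 5 genes. The cerebellum minus cortex value was 0.77 for ENSRNOG00000020875 and 0.79 for ENSRNOG00000007925, and 1.98, 0.50 and 0.44 for the members at 8.35, 102 and 334 TPM in WT cortex (log2). At 19 months the same values for ENSRNOG00000020875 were 0.76 against cortex and 0.72 against striatum; these rest on the WT libraries that chose the members and are descriptions.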

How the results depend on the processing

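Members called in cerebellum of 24 months numbered 5 as reported. They were 3 with limma at either offset or without its filter and with both ages in 1 fit, 1 with the replicate block, 0 in females or males alone, 10 among genes chosen at 4 times and 2 at 16 times, and 2 to 6 with 1 library left out (3 without WT F1 or WT M1, 2 without WT M2). At 19 months, 2 were called: 1 with the replicate block or in females, 0 in males, 5 (1 lower) at 4 times and 0 at 16 times. Leaving out 1 library gave 0 to 1 in striatum of 2 months, 0 to 3 at 6 months and 0 to 1 for WT striatum with age (1 without F1); DESeq2 gave 3 at 6 months. The causes were not tested; fewer samples enter the single-sex and left-out fits. ENSRNOG00000020875 kept its call in females at 19 months (0.72, edgeR adjusted p 0.0359) but not in males (0.61, 0.124) nor, at 24 months, at 0.66 in females and 0.73 in males (0.172 and 0.101). ENSRNOG00000007925 at 24 months lost its call with the block (0.62, edgeR adjusted p 0.0781), with both ages (0.74, 0.155), in females (0.66, 0.5677), in males (0.83, 0.145) and without WT M2 (0.66, 0.0864). The medians in cerebellum of 24 months stayed between 0.08 and 0.23; at 19 months they ran from -0.04 to 0.26, and were 0.02 without KI F5 and WT M1, a choice made after seeing the data. The median difference in striatum of 24 months ran from -0.46 to -0.01. Counts called between regions were the same in every alternative run, except for cerebellum against striatum without 1 WT animal, where 80 members were tested and all 80 were lower. Replicate numbers do not pair the animals: same-numbered libraries of the 2 genotypes correlated above 0.1 in 23 of 68 pairs, and 17 correlated best with their own number. Low counts limit the scarce members: those with few counts per cerebellar library could show only large folds.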
